A study of Mus musculus with 16 samples.

Results

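All 4 H3K4me3 lists and all 4 H3K27me3 lists of the series were set against each other, 8 of its 16 libraries, with the lists of 2 and 4 days post injury (dpi) used together. The other 8 libraries profile lactylation of lysine 18 (H3K18la) and acetylation of lysine 27 (H3K27ac) and serve here only as points of reference. The animals were C57BL6J wild type male mice, 8 to 12 weeks old, and all of them had hind limb ischemia made by ligating and removing the femoral artery, so no uninjured group is part of the comparison. Macrophages positive for CD64, F4/80, CD11b and CD45 were sorted out of calf muscle, at 4 dpi or at 2 dpi, and each mark was profiled in 2 libraries per time point by CUT&Tag, in which an antibody guides a transposase to the mark and the released fragments are sequenced. A list holds many cells together, so a place called for both marks may carry them on the same histones, on either allele or in different cells, and these cannot be told apart. The labels do not say which libraries share mice or cells, or how many animals gave 1 library, so the spread between libraries may be technical. The sorted cell type could not be checked against marker genes, because the gene annotation used here is of another genome build than the lists.

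Trimethylation of lysine 4 of histone H3 (H3K4me3) is laid down by the COMPASS family of methyltransferases at the starts of active genes, where it lies next to the start site in narrow, strong peaks. Trimethylation of lysine 27 (H3K27me3) is laid down by Polycomb repressive complex 2 and spreads over silent genes and gene clusters, many of them regulators of other cell lineages. Places that carry both marks were first described in embryonic stem cells as bivalent promoters, of genes that are silent but can be switched either way.

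The H3K4me3 lists held more and narrower peaks. They had 18413 and 16446 peaks at 4 dpi and 16962 and 16612 peaks at 2 dpi, while the H3K27me3 lists had 14791 and 14836 peaks at 4 dpi and 12225 and 12060 peaks at 2 dpi. The mean was 17108 ± 896 peaks for H3K4me3 and 13478 ± 1544 peaks for H3K27me3 (SD, n = 4 each), with no overlap between the marks (adjusted p = 0.0357, exact permutation test, 2-sided). The median width of a peak was 2104 ± 322 bp in the H3K4me3 lists and 3448 ± 372 bp in the H3K27me3 lists (SD, n = 4 each; adjusted p = 0.0357, exact permutation test), and with lists cut to an equal 12060 peaks the adjusted p was 0.0714. The tail was longer still for H3K27me3, whose widest peak in a list measured between 91984 and 183295 bp, against 29148 to 38360 bp for H3K4me3. The peaks of a list covered 41.6 ± 8.13 Mb for H3K4me3 and 68.5 ± 14.2 Mb for H3K27me3, and here the lists of the marks overlapped (SD, n = 4 each; adjusted p = 0.0571, exact permutation test). With 4 libraries against 4 the smallest p is 0.0286, and 5 contrasts were adjusted together. No read numbers are in the lists, so the depth is unknown, and the length of a list can move with it. All 8 libraries carry the same run code in the labels, as does H3K18la, while the H3K27ac libraries carry 2 other codes.

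The 2 marks shared little ground, but more than the share of the genome that either covers. A peak was said to meet the other mark where it overlapped, by at least 1 bp, a peak of either library of the other mark at the same time point. H3K27me3 was met by 15.7% and 13.9% of H3K4me3 peaks at 4 dpi and by 13.4% and 12.3% at 2 dpi. Of the H3K27me3 peaks 2663 and 2738 met H3K4me3 at 4 dpi and 2182 and 1949 at 2 dpi, which was 16.2 to 18.5% of a list. With the stronger 50% of each list by maximum signal the means were 7.37% of H3K4me3 peaks and 9.96% of H3K27me3 peaks. A minority of the peaks of either mark thus touched the other, and the lists of a mark differed little among themselves. In bases, 10.3 to 12.8% of the length of an H3K4me3 list lay in H3K27me3, and 6.89 to 9.16% of the length of an H3K27me3 list lay in H3K4me3. The share of H3K4me3 bases in H3K27me3 was 3.82 ± 0.584 times the share of the 2720 Mb spanned by peaks that H3K27me3 covered, and the share of H3K27me3 bases in H3K4me3 was 4.51 ± 0.786 times that covered by H3K4me3 (SD, n = 4 libraries each). This span also holds sequence in which no peak of any mark can be called, so the ratios are descriptions and were not tested.

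The overlap of the lists was also measured as the Jaccard index, the length that 2 lists share over the length that either covers. It was 0.0498 and 0.0345 for the H3K4me3 libraries of 4 dpi against H3K27me3 of the same time, and 0.0420 and 0.0397 for those of 2 dpi. Between 2 libraries of 1 mark it was far higher, at 0.603 to 0.706 for H3K4me3 and 0.531 to 0.655 for H3K27me3. Against H3K18la the index of the H3K4me3 libraries was 0.229 ± 0.0106 and against H3K27ac 0.321 ± 0.0596, which put H3K27me3 lower by 0.187 and by 0.279 in the mean (SD, n = 4). H3K27me3 was the lower in 4 of 4 H3K4me3 libraries both times (p = 0.125, exact sign-flip permutation test, 2-sided, the smallest p that 4 libraries allow).

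The strength of a peak related to the other mark in opposite ways. Strength is given as the percentile of a peak by total signal within its own list, the signal that the peak caller summed over the peak, since signal is not normalized between libraries. Among H3K4me3 peaks, those with H3K27me3 had a median percentile of 35.9 and 35.4 at 4 dpi and 37.8 and 38.7 at 2 dpi, and those without it 53.2 and 52.6 at 4 dpi and 51.9 and 51.7 at 2 dpi. Among H3K27me3 peaks, those with H3K4me3 had a median percentile of 75.4 and 73.1 at 4 dpi and 74.1 and 73.0 at 2 dpi, and those without it 45.0 and 45.1 at 4 dpi and 45.4 and 45.8 at 2 dpi. In every library the meeting H3K4me3 peaks were the weaker ones and the meeting H3K27me3 peaks the stronger ones. The difference between meeting and other peaks was -15.4 ± 2.20 percentile points for H3K4me3 and 28.6 ± 1.35 for H3K27me3, and the marks differed by -44.0 points (SD, n = 4 each; adjusted p = 0.0357, exact permutation test). Libraries of a time point shared the partner lists, and both marks were classed by the same overlaps, so the values are not fully independent. Within a mark, where the test runs over 4 libraries, p was 0.125, the smallest that the exact sign-flip test allows, for either mark. Ranking by the maximum of a peak in place of its sum gave -19.7 ± 1.34 points for H3K4me3 and 34.4 ± 3.21 for H3K27me3. With only the stronger 50% of each list by maximum signal, partner lists included, the marks differed by -11.1 points (adjusted p = 0.0357, exact permutation test).

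**Figure D1:**
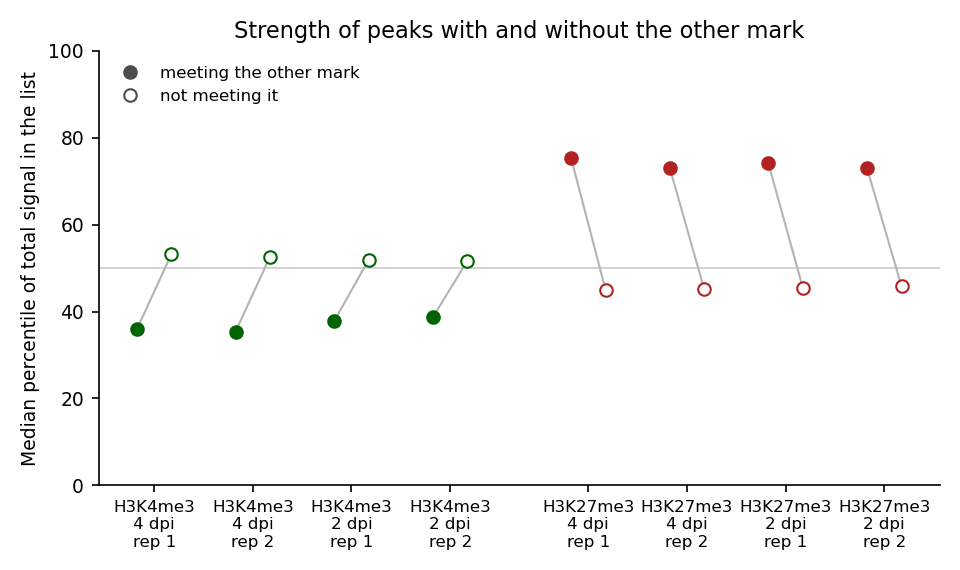
Median rank by total signal as a percentile of the list (y axis, 0 to 100) for peaks that meet the other mark (filled points) and peaks that do not (open points), 1 pair per library, H3K4me3 libraries on the left and H3K27me3 libraries on the right; a grey line joins the pair of a library and the horizontal line marks the middle of a list. Meeting H3K4me3 peaks lie between 35.4 and 38.7, below their open points, and meeting H3K27me3 peaks between 73.0 and 75.4, above theirs.

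Over the whole range of strength, H3K27me3 became less frequent at H3K4me3 peaks as these grew stronger. It was met by 20.2% ± 1.84 of H3K4me3 peaks in class 1, the weakest of 10 equal classes by total signal, by 14.6% ± 2.18 in class 5, by 7.82% ± 0.642 in class 9 and by 8.61% ± 0.406 in class 10, the strongest (SD, n = 4). The small step up at the strong end was also there by maximum signal, with 7.98% ± 0.170 in class 10 and 6.44% ± 0.335 in class 9, and by maximum signal the values of the 4 libraries did not overlap between these classes. For H3K27me3 peaks the mean share was higher at every step, and most at the last ones. H3K4me3 was met by 7.17% ± 0.974 of class 1, by 28.4% ± 2.82 of class 9 and by 45.3% ± 3.02 of class 10, and by maximum signal by 3.28% ± 0.668 of class 1 and 54.0% ± 6.86 of class 10 (SD, n = 4). In class 10 by maximum signal, H3K27me3 of 2 dpi replicate 2 stood lowest, at 43.9%, and the other libraries lay at 56.3% or above.

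**Figure D2:**
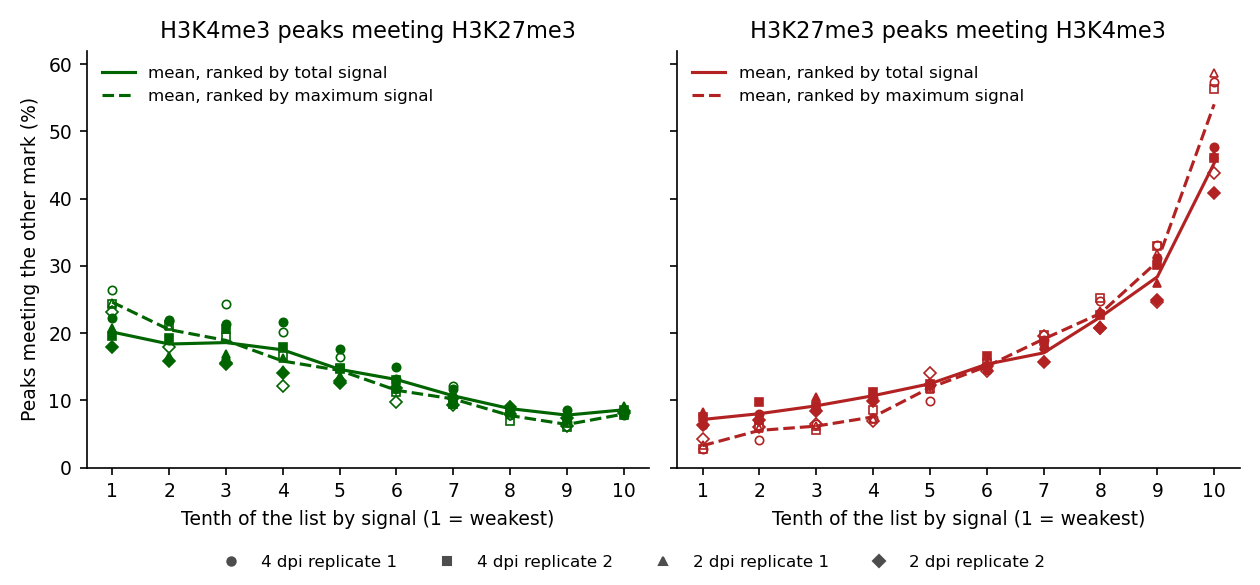
Share of peaks that meet the other mark (y axis, percent) by class of strength (x axis, 10 equal classes of a list, 1 = weakest), for H3K4me3 peaks on the left and H3K27me3 peaks on the right; points are libraries and lines their means, filled points and full lines for ranking by total signal, open points and dashed lines for maximum signal. The H3K4me3 curve stands at 8.61% in class 10 by total signal, against 20.2% in class 1, and the H3K27me3 curve at 45.3%, against 7.17%.

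Total signal grows with width, so the relation was read within 3 equal classes of width, each split into 3 by maximum signal. Among the widest H3K4me3 peaks, 7.14% ± 0.368 of the strongest met H3K27me3, against 21.4% ± 2.11 of the weakest (SD, n = 4). Among the narrowest H3K4me3 peaks the shares were 10.9% ± 1.29 of the strongest and 19.2% ± 1.72 of the weakest. The same reading for H3K27me3 peaks gave 48.9% ± 5.00 of strong and 10.3% ± 1.27 of weak peaks among the widest, and 23.9% ± 3.49 of strong and 4.47% ± 0.876 of weak peaks among the narrowest. Strength thus went with the other mark in the same direction among narrow and wide peaks of either mark. Width itself also differed. H3K4me3 peaks with H3K27me3 were 2021 ± 293 bp wide in the median and those without it 2117 ± 327 bp, while H3K27me3 peaks with H3K4me3 were 5030 ± 475 bp wide and those without it 3252 ± 366 bp (SD, n = 4). The log2 ratio of these widths was -0.07 ± 0.02 for H3K4me3 and 0.63 ± 0.08 for H3K27me3 and differed by -0.70 between the marks (SD, n = 4 each; adjusted p = 0.0357, exact permutation test). With only the stronger 50% of each list by maximum signal it came to -0.0063 (adjusted p = 0.914, exact permutation test). A wider peak meets the other mark more easily by its length alone, so the width difference for H3K27me3 is partly built in. The part of length was not tested. By 10 equal classes of width, H3K4me3 was met by 19.4% ± 3.59 of the narrowest H3K27me3 peaks. The share was 9.15% ± 0.774 in class 3 and 38.0% ± 2.34 in the widest (SD, n = 4).

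Where the marks met, the H3K4me3 peak mostly lay within H3K27me3, when peaks of either H3K27me3 library counted. With partner peaks of both libraries, or with only the stronger 50% of each list, the share inside was lower, close to 50%. Of the meeting H3K4me3 peaks, 58.5% and 63.0% lay wholly inside H3K27me3 at 4 dpi and 67.9% and 62.2% at 2 dpi. Another 26.0 to 36.6% crossed an edge of H3K27me3, and 3.38 to 7.53% enclosed an H3K27me3 peak, which came to 77 to 154 peaks per library. Seen from the other side, 48.3% and 47.3% of meeting H3K27me3 peaks enclosed H3K4me3 at 4 dpi and 53.8% and 46.3% at 2 dpi, and 6.36 to 11.7% lay wholly inside H3K4me3. H3K27me3 peaks are the wider ones, and the part of width in this nesting was not tested.

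**Figure D3:**
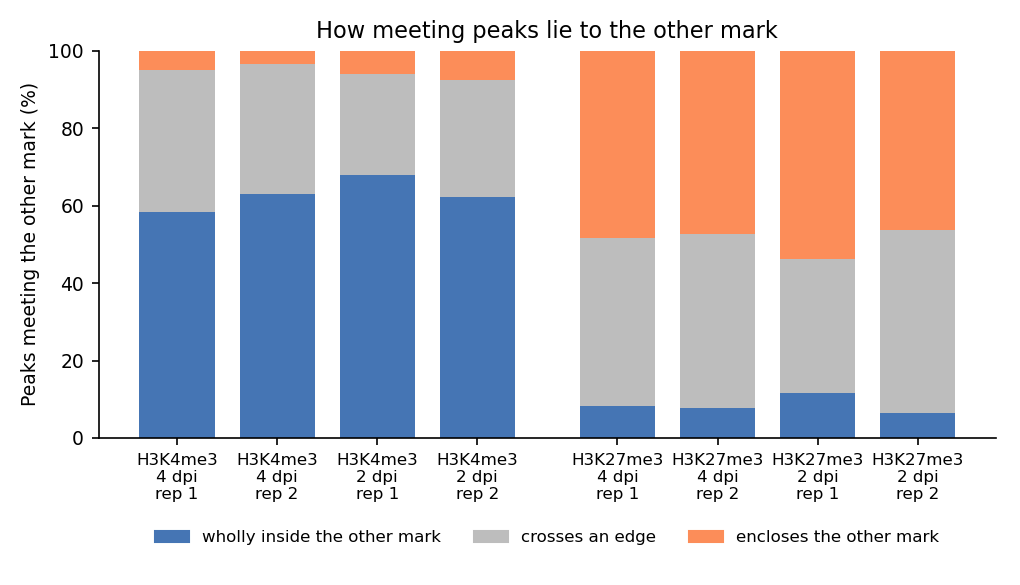
Share of the peaks that meet the other mark (y axis, percent, bars add up to 100) that lie wholly inside it, cross an edge of it or enclose it, 1 bar per library, H3K4me3 libraries on the left and H3K27me3 libraries on the right. Between 58.5 and 67.9% of meeting H3K4me3 peaks lie inside H3K27me3, and 46.3 to 53.8% of meeting H3K27me3 peaks enclose H3K4me3.

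The way a peak met the other mark went with its strength. H3K4me3 peaks wholly inside H3K27me3 had a median percentile of 30.2 ± 1.10, those that crossed an edge 48.1 ± 4.49, those that enclosed H3K27me3 76.5 ± 6.44, and those apart from it 52.4 ± 0.687 (SD, n = 4). The nested peaks thus ranked lowest, and the few that enclosed H3K27me3 ranked above peaks without it in every library. By maximum signal the peaks that crossed an edge also stood below those apart, at 46.0 ± 3.22 against 52.9 ± 0.587 (SD, n = 4). H3K27me3 peaks that enclosed H3K4me3 were the strongest and widest, with a median percentile of 87.7 ± 0.570 and a median width of 7797 ± 872 bp. H3K27me3 peaks inside H3K4me3 had a median percentile of 28.5 ± 2.22 by total signal but of 61.9 ± 4.35 by maximum signal, and were 1476 ± 177 bp wide (SD, n = 4).

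The maximum of an enclosing H3K27me3 peak mostly lay at the H3K4me3 inside it. At 4 dpi 83.3% and 82.8% of enclosing H3K27me3 peaks had their maximum within an H3K4me3 peak, and at 2 dpi 84.0% and 70.2%. The H3K4me3 covered 35.7% and 37.2% of the width of these peaks at 4 dpi and 39.8% and 33.2% at 2 dpi, so the maximum lay in H3K4me3 about 2 times as often as its share of the width. An antibody-free or open-chromatin profile was not used here, and the part of unspecific cutting at open promoters in this placement was not tested. An H3K4me3 peak flanked by H3K27me3 within 5 kb on both sides, without meeting it, was rare, with 48 and 41 such peaks at 4 dpi and 47 and 37 at 2 dpi. Peaks flanked on 1 side numbered 925 to 1084 per library.

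H3K4me3 rank related to the width of the H3K27me3 peak it met, but weakly. With H3K4me3 lists split into 5 equal classes by total signal, the H3K27me3 peaks met had a median width of 6491 ± 447 bp in the weakest class, 5855 ± 572 bp in the middle one and 5059 ± 403 bp in the strongest (SD, n = 4). Spearman's rho between the total-signal percentile of the H3K4me3 peak and the width of the H3K27me3 peak lay between -0.110 and -0.0784 over 2046 to 2893 meeting peaks per library, and by maximum signal between -0.264 and -0.196. These correlations run over sites of 1 library, which are not independent, and are a description. The H3K27me3 peaks met by the weakest class were also the stronger ones, at a median percentile of 81.1 ± 1.25, against 72.7 ± 1.15 for those met by the strongest class of H3K4me3 peaks.

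H3K27me3 was denser near weak H3K4me3 peaks than far from them, over several kilobases, and near strong ones it was not. Of the bases inside the weakest 25% of H3K4me3 peaks by total signal 19.0% ± 1.92 lay in H3K27me3, of the first kilobase outside them 15.1% ± 1.80, at 5 to 10 kb 8.38% ± 1.14, and at 50 to 100 kb 6.41% ± 1.28 (SD, n = 4). For the strongest 25% the cover was 6.15% ± 0.465 inside, 4.75% ± 0.289 in the first kilobase, 4.32% ± 0.724 at 10 to 20 kb and 6.19% ± 1.41 at 50 to 100 kb. The cover was higher for the weak than for the strong class in 4 of 4 libraries at every distance, by the least at 50 to 100 kb, and this was not tested.

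**Figure D4:**
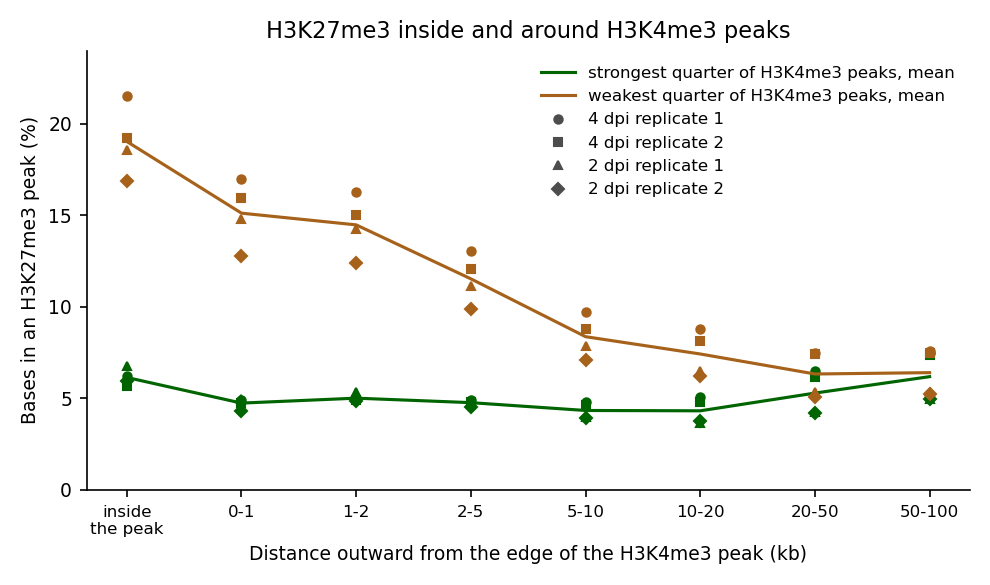
Share of bases in an H3K27me3 peak of the same time point (y axis, percent), inside H3K4me3 peaks and at increasing distance outward from their edges (x axis, kb, unequal steps), for the strongest 25% (green) and the weakest 25% (brown) of each H3K4me3 list; points are the 4 libraries and lines their means. The weakest class begins at 19.0% inside the peak and comes to 6.41% at 50 to 100 kb, where the strongest class stands at 6.19%.

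Most H3K27me3 peaks lay more than 10 kb from H3K4me3. Of the H3K27me3 peaks 17.6% ± 1.00 met H3K4me3, 3.13% ± 0.543 had an H3K4me3 edge within 1 kb, 6.84% ± 0.467 at 1 to 5 kb, 7.54% ± 0.151 at 5 to 10 kb, 49.2% ± 1.17 at 10 to 100 kb and 15.2% ± 0.698 at 100 to 1000 kb (SD, n = 4). Among peaks that did not meet, the median distance was 33.9 and 33.4 kb at 4 dpi and 33.9 and 34.7 kb at 2 dpi. In the other direction, H3K4me3 peaks that did not meet H3K27me3 lay at a median of 60.7 and 60.2 kb from it at 4 dpi. At 2 dpi the median was 70.3 and 71.3 kb. It was shorter in both libraries of 4 dpi, where the H3K27me3 lists were also longer. With 2 libraries against 2 an exact test cannot go below 0.333, so no test was made. For comparison, 49.5% ± 5.02 of H3K18la peaks and 49.1% ± 8.03 of H3K27ac peaks met H3K4me3 (SD, n = 4).

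Strong H3K27me3 peaks met H3K4me3 more often, and the weak ones mostly lay at middle distance. Of the strongest 25% by maximum signal 38.8% ± 4.34 met H3K4me3, of the weakest 25% 4.75% ± 0.585 (SD, n = 4). A further 3.17% ± 0.512 of the strongest and 2.50% ± 0.820 of the weakest lay within 1 kb of it. At 10 to 100 kb stood 36.1% ± 2.08 of the strongest and 59.5% ± 2.86 of the weakest, and 0.395% ± 0.0641 of the strongest and 0.267% ± 0.101 of the weakest were more than 1000 kb away.

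To follow places across libraries, overlapping peaks were joined into regions, separately for each mark. Of 19426 H3K4me3 regions 13298 were called in all 4 libraries, and of 16871 H3K27me3 regions 7515 were. H3K27me3 was present in all 4 of its libraries at 1281 of the 13298 H3K4me3 regions (9.63%), in none at 11392 (85.7%), in both libraries of 4 dpi but none of 2 dpi at 86, and in both of 2 dpi but none of 4 dpi at 23. H3K4me3 was present in all 4 of its libraries at 1286 of the 7515 H3K27me3 regions (17.1%), in none at 5214 (69.4%), at 4 dpi only at 186 and at 2 dpi only at 23. The other 516 H3K4me3 regions and 806 H3K27me3 regions had the other mark in some libraries, in other combinations. More were called with both marks at 4 dpi only than at 2 dpi only. The lists of 4 dpi were longer for H3K27me3 and for 1 H3K4me3 library, and how far the length of the lists sets these counts was not tested.

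Most H3K27me3 regions met no H3K4me3 region or 1 of them. Among the 7515 regions, 6150 met no H3K4me3 region of all 4 libraries, with a median width of 6.92 kb. Another 1287 met 1 (7.62 kb), 73 met 2 (20.8 kb) and 5 met 3 or more (55.1 kb). The widest 10%, 752 regions of 17.7 to 184 kb, met H3K4me3 in 29.9% of cases, against 16.9% of the others. Per length they met fewer, 12.5 H3K4me3 regions per Mb, against 23.4 per Mb in the others, where a region that only crossed an edge counted in full. Wide H3K27me3 regions therefore met H3K4me3 more often, which their length alone favours, but met fewer separate H3K4me3 regions per length. By bases the cover did not fall steadily with width. In 10 equal classes of H3K27me3 peaks by width, H3K4me3 covered 14.8% ± 3.37 of the narrowest. It covered 5.69% ± 0.539 of class 4 and 8.86% ± 1.25 of the widest (SD, n = 4).

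The widest regions show how the marks lie to each other. Coordinates are those of GRCm39. The widest, chr7:131899866-132084001, was called over 183 and 182 kb at 4 dpi and 173 and 182 kb at 2 dpi. It met 2 H3K4me3 regions. Within it H3K4me3 was called over 13.2 and 4.58 kb at 4 dpi and 17.4 and 13.2 kb at 2 dpi. The next, chr8:112398547-112566203, met 2 H3K4me3 regions, with 10.2 and 7.95 kb called within it at 4 dpi and 5.69 and 8.27 kb at 2 dpi. Both domains were thus H3K27me3 nearly throughout, with H3K4me3 over a small part of their length. Each also met H3K18la peaks in 3 libraries, and H3K27ac peaks in 4 libraries for the first and 3 for the second.

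On chromosome 15 lay a pair of wide neighbours with a different content. The domain chr15:6967543-7108842 (141 kb) held no H3K4me3 peak in any library, and its nearest one lay 12.7 kb from its edge. The domain chr15:7159332-7298394 (139 kb) met 2 H3K4me3 regions, with 4.40 and 3.96 kb called within it at 4 dpi and 5.72 and 3.49 kb at 2 dpi. One of the 2, at chr15:7165671-7167328, was among the 5 weakest H3K4me3 regions with H3K27me3 in all libraries, with a mean percentile of 1.94 (4.24 and 0.229 at 4 dpi, 1.18 and 2.09 at 2 dpi), and no H3K27ac or H3K18la library called it. The fifth of the widest, chr15:102830424-102960931, met 1 H3K4me3 region and no peak of H3K18la or H3K27ac.

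The H3K27me3 region that met the highest number of H3K4me3 regions, 4, was chr14:70221093-70334586, 113 kb wide. H3K27me3 was called over 112 and 108 kb of it at 4 dpi and over 89.5 and 96.2 kb at 2 dpi, and H3K4me3 over 15.2 and 8.48 kb at 4 dpi and 6.76 and 10.1 kb at 2 dpi. The region chr2:56983683-57008130, only 24.4 kb wide, met 3 H3K4me3 regions. H3K4me3 took up 12.0 and 11.04 kb of it at 4 dpi and 10.4 and 10.5 kb at 2 dpi, a far denser packing. At the other end, 1067 of the 7515 regions lay over 100 kb and 37 over 1000 kb from any H3K4me3 peak, the farthest being chr14:111910488-111919864, 3265 kb away.

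The strongest regions with both marks were mostly places called for every mark. The 5 H3K4me3 regions of highest rank with H3K27me3 in all 4 libraries were chr2:98496582-98497684, chr9:3000001-3038385, chr12:3159865-3160157, chr2:98492574-98493340 and chr9:35216511-35216889, and all 5 were called in all 4 H3K18la and all 4 H3K27ac libraries too. Apart from the one at the start of chromosome 9, which was 38.4 kb wide, they were at most 1.10 kb wide. Of the 80 regions with both marks in the strongest 10% of H3K4me3, 62.5% were called in all 16 libraries, against 7.83% of the 1201 others, and in the strongest 1% 19 of 21 were. Only 1 of the 80, against 396 of the 1201 others (33.0%), was called in the 8 libraries of the 2 marks alone. At 8 places the maximum signal was above the 99th percentile in all 16 lists. Without these 8 places, or without the 117 places called in all 16 lists, the marks still differed in strength difference (adjusted p = 0.0357, exact permutation test, both times).

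H3K4me3 regions with H3K27me3 less often carried the marks of active chromatin. H3K27ac, found at active promoters and enhancers, was present at 56.7% and 46.1% of the 1281 regions with H3K27me3 at 4 dpi and at 48.5% and 35.1% at 2 dpi, against 93.6% and 93.5% of the 11392 regions without it at 4 dpi and 95.1% and 87.6% at 2 dpi. H3K18la, the lactylation mark at the centre of the study, was present at 21.9% and 21.0% with H3K27me3 at 4 dpi and at 34.3% and 17.2% at 2 dpi, against 46.9% and 50.5% without it at 4 dpi and 66.7% and 42.5% at 2 dpi. The share was lower with H3K27me3 in 4 of 4 libraries of either mark, by 45.9 ± 6.52 points for H3K27ac and 28.1 ± 3.58 points for H3K18la (SD, n = 4; p = 0.125 each, exact sign-flip permutation test, the smallest it allows). Because regions with H3K27me3 are weaker, the shares were also read by strength. In the weakest of 3 equal classes of H3K4me3 regions H3K27ac was present at 27.8% ± 8.59 with H3K27me3 and 82.0% ± 7.08 without it, and in the strongest class at 82.4% ± 4.84 with it and 99.5% ± 0.522 without it (SD, n = 4). H3K18la in the strongest class was present at 53.1% ± 11.1 with H3K27me3 and 69.7% ± 11.6 without it, so strong regions without H3K27me3 carried the active marks more often still. In percentage points the gap in H3K27ac was thus wider in the weakest class than in the strongest. In the strongest class the share without H3K27me3, 99.5%, stood close to its upper limit, which bounds the gap there.

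Among H3K27me3 regions, those with H3K4me3 more often carried the active marks. Regions with both marks are here the same overlaps counted from the other side, set against other regions. In the mean 49.1% of H3K27ac and 49.5% of H3K18la peaks met H3K4me3, so the direction is partly built into the choice. H3K27ac was present at 49.6% ± 10.7 of H3K27me3 regions with H3K4me3 in all 4 libraries and at 5.73% ± 6.33 of those without any, and H3K18la at 24.7% ± 7.97 and 3.25% ± 1.70 (SD, n = 4; p = 0.125 each, exact sign-flip permutation test). One H3K27ac library, of 4 dpi replicate 1, the only one with its run code, called 15.1% of the H3K27me3 regions without H3K4me3, and the other 3 called 1.40 to 3.55%.

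**Figure D5:**
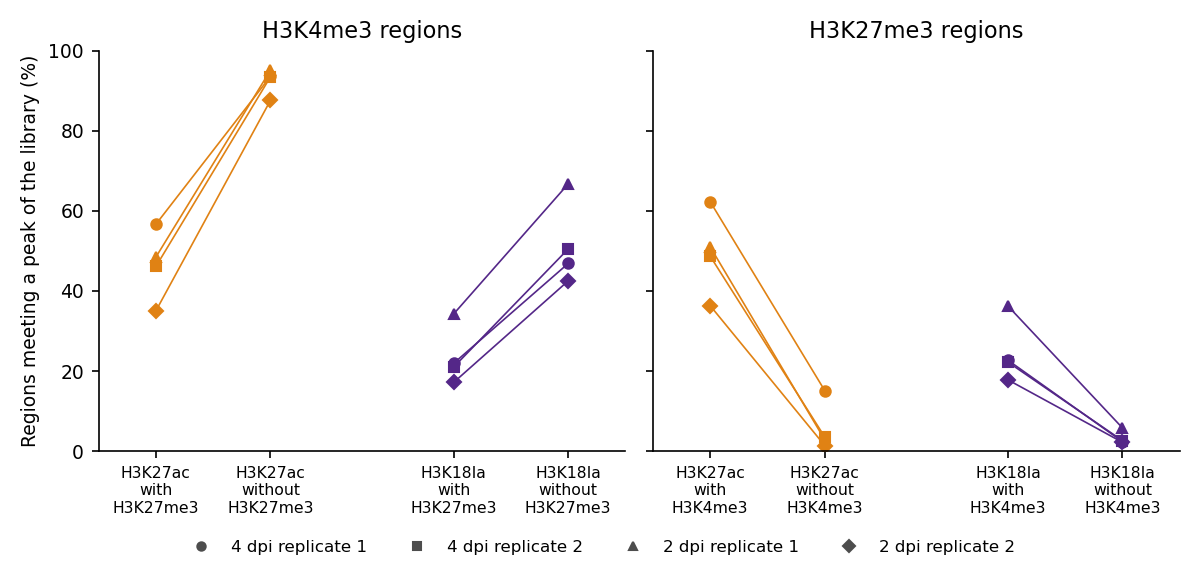
Share of H3K4me3 regions (left) and of H3K27me3 regions (right) that meet a peak of an H3K27ac library (orange) or H3K18la library (purple), for regions with the other mark in all 4 of its libraries and for regions with it in none; lines join the 2 values of a library (y axis, percent). H3K27ac is at 46.6% of H3K4me3 regions with H3K27me3 and 92.4% of those without it in the mean, and at 49.6% of H3K27me3 regions with H3K4me3 and 5.73% of those without it.

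How often the marks met varied between chromosomes, and this was not tested. Between 7.54% of H3K4me3 regions (chromosome X, 27 of 358) and 14.5% (chromosome 13, 96 of 664) met an H3K27me3 region of all 4 libraries, leaving out Y with 10 H3K4me3 regions. For H3K27me3 regions the share that met H3K4me3 lay between 13.3% (chromosome 11) and 25.4% (chromosome 3).

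Between 4 and 2 dpi, H3K4me3 ranks fell more often than they rose at regions with H3K27me3. Regions called in all 4 libraries were ranked by summed signal in each library, the ranks were converted to normal scores, and limma tested the shift, the score at 4 dpi minus that at 2 dpi, over all regions of a mark. Over all 13298 H3K4me3 regions 7.78% rose and 8.07% fell (limma, adjusted p under 0.05). Of the 1281 with H3K27me3 in all 4 libraries, 75 rose (5.85%) and 149 fell (11.6%), with a median shift of -0.09. Of the 11392 with none, 929 rose (8.15%) and 866 fell (7.60%), with a median shift of 0.02. The counts are a description beside the share over all regions and were not tested against it. The scale matters for the balance, since on log2 of median-scaled signal 938 of all regions rose and 1882 fell, and at regions with H3K27me3 80 rose and 223 fell. By maximum signal 198 of all regions rose and 165 fell, 11 and 22 of them with H3K27me3. With a variance fitted without trend and robustness none was called, although 1737 rose and 1895 fell at an unadjusted p under 0.05. Leaving out H3K4me3 of 2 dpi replicate 1 gave an almost even split of rises and falls at the regions with H3K27me3. Their median shift was then -0.0325, against 0.0127 at regions with none. Leaving out each of the other libraries left more fallen than risen ones. The median shift with H3K27me3 was -0.162 without 2 dpi replicate 2, -0.0686 without 4 dpi replicate 1 and -0.0699 without 4 dpi replicate 2. At regions with none it was 0.0149, 0.0228 and 0.0252 in the same order. With replicate 1 or replicate 2 of 4 dpi left out, more regions fell than rose over all regions too.

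At a few regions H3K27me3 was called at 1 time point only. Those with it at 4 dpi only had more falls than rises of H3K4me3, as did the regions with H3K27me3 throughout, and those with it at 2 dpi only had a median shift above 0. Of the 86 with H3K27me3 at 4 dpi only, 9 fell (10.5%) and 2 rose (2.33%), with a median shift of -0.16 and a shift above 0 in 34.9%. Of the 23 with H3K27me3 at 2 dpi only, 2 rose (8.70%) and none fell, with a median shift of 0.17 and a shift above 0 in 91.3%. Over all regions 7.78% rose and 8.07% fell, the median shift was 0.01 and 51.2% were above 0. The 10.5% of the 86 that fell and the 8.70% of the 23 that rose were thus close to the shares over all regions. The number of regions is small, and their shifts share the same 4 libraries. Of the 86, by maximum signal 3 rose and 2 fell, on log2 of median-scaled signal 2 rose and 21 fell, and without H3K4me3 of 4 dpi replicate 2 1 rose and 2 fell. Without that library 0 of the 23 rose.

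H3K27me3 itself was called at few regions. Of all 7515, 67 rose (0.892%) and 4 fell (0.0532%) at 4 against 2 dpi (limma, adjusted p under 0.05). Of the 1286 with H3K4me3 in all 4 libraries, 10 rose (0.778%) and 3 fell (0.233%), close to the share over all regions for those that rose. By maximum signal 4 regions rose and none fell of all 7515, with 335 risen and 198 fallen at an unadjusted p under 0.05. Without H3K27me3 of 4 dpi replicate 2, 8 rose and 4 fell, and without 2 dpi replicate 2, 315 rose and 26 fell, so single libraries set this count. Of 1449 pairs of an H3K4me3 and an H3K27me3 region that met, both shifts were above 0 in 236 and below 0 in 485, and they had opposite signs in 397 (H3K4me3 up) and 321 (H3K4me3 down). Spearman's rho of the shifts was -0.0889 over these pairs, which are not independent, and both regions were called in 4 pairs.

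Single regions with both marks show the size of the shifts. At chr2:140509290-140514179 the H3K4me3 percentile was 59.1 and 59.6 at 4 dpi, against 94.6 and 91.9 at 2 dpi, with H3K27me3 in all 4 libraries (shift -1.27 ± 0.12 SE, limma adjusted p = 9.2e-05). H3K27me3 was called over 4.50 and 4.86 kb of this region at 4 dpi and over 2.81 and 2.57 kb at 2 dpi, while H3K4me3 was called over 2.65 and 1.90 kb at 4 dpi and 4.40 and 4.89 kb at 2 dpi. The called length of the marks thus moved in opposite ways there. At chr4:143020775-143027939 the H3K4me3 percentile was 63.1 and 64.7 at 4 dpi, against 92.0 and 92.4 at 2 dpi (shift -1.06 ± 0.11 SE, limma adjusted p = 0.000202). A rise was seen at chr11:120120139-120127840, with percentiles of 74.4 and 84.3 at 4 dpi, against 1.09 and 6.03 at 2 dpi (shift 2.76 ± 0.26 SE, limma adjusted p = 9.84e-05), where H3K4me3 was called over 7.61 and 6.77 kb at 4 dpi and 0.686 and 1.23 kb at 2 dpi.

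Where H3K27me3 was called at 4 dpi only, the fall with the smallest adjusted p was at chr13:41069346-41076636. Its H3K4me3 percentile was 88.7 and 87.7 at 4 dpi, against 97.5 and 96.4 at 2 dpi (shift -0.70 ± 0.10 SE, limma adjusted p = 0.00169), and H3K27me3 was called over 2.21 and 2.61 kb at 4 dpi and nowhere in it at 2 dpi. At chr4:83190409-83193243 the percentile was 6.48 and 1.76 at 4 dpi, against 40.4 and 44.0 at 2 dpi (shift -1.61 ± 0.29 SE, limma adjusted p = 0.00448), with 1.62 and 2.35 kb of H3K27me3 at 4 dpi and none at 2 dpi. Of the named regions with H3K27me3 at 4 dpi only, 2 rose. The H3K4me3 percentile at chr9:61275031-61284253 was 93.4 and 93.9 at 4 dpi, against 77.9 and 86.5 at 2 dpi (shift 0.59 ± 0.12 SE, limma adjusted p = 0.00823), with 2.16 and 2.42 kb of H3K27me3 at 4 dpi and none at 2 dpi. At chr6:47738556-47743511 it was 92.6 and 92.3 at 4 dpi, against 84.7 and 85.5 at 2 dpi (shift 0.39 ± 0.10 SE, limma adjusted p = 0.0237). Without H3K4me3 of 4 dpi replicate 2 neither rise was called (limma adjusted p = 0.0512 on chromosome 9 and 0.0812 on chromosome 6), and without 4 dpi replicate 1 the one on chromosome 6 was not (0.0860).

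The 4 named H3K27me3 regions with H3K4me3 that rose were all called over longer stretches at 4 dpi. They were picked by summed signal, which grows with width, so longer stretches are partly built into the choice. The H3K27me3 lists also covered more at 4 dpi, 80.3 ± 0.804 Mb, against 56.6 ± 6.29 Mb at 2 dpi (SD, n = 2 each). At chr16:10618627-10670668 the H3K27me3 percentile was 98.2 and 98.3 at 4 dpi, against 90.2 and 93.0 at 2 dpi (shift 0.72 ± 0.08 SE, limma adjusted p = 0.00982), and H3K27me3 was called over 49.4 and 51.0 kb at 4 dpi and 21.9 and 31.1 kb at 2 dpi. H3K4me3 was called over 4.87 and 3.48 kb of it at 4 dpi and 4.29 and 2.88 kb at 2 dpi. At chr6:47648373-47663973, close to the H3K4me3 rise on chromosome 6, the H3K27me3 percentile was 66.0 and 83.7 at 4 dpi, against 11.4 and 2.50 at 2 dpi (shift 2.28 ± 0.31 SE, limma adjusted p = 0.0236), with 12.5 and 15.6 kb called at 4 dpi and 1.93 and 1.92 kb at 2 dpi, and H3K4me3 covered 12.6 to 15.6 kb of it in all 4 libraries. By maximum signal its mean H3K27me3 percentile was 23.2, and all libraries of H3K27ac and H3K18la called it. The fall of H3K27me3 with the smallest adjusted p was small, at chr9:91230060-91289302, with 99.3 and 99.4 at 4 dpi, against 99.7 and 99.7 at 2 dpi (shift -0.29 ± 0.04 SE, limma adjusted p = 0.031), and by maximum signal its shift was 0.29 and not called. Without H3K27me3 of 4 dpi replicate 2 the rise at chr6:47648373-47663973 was not called (limma adjusted p = 0.151), nor were those at chr16:95251331-95262033 (0.0758) and chr8:95699386-95722922 (0.130), and without 2 dpi replicate 1 the fall at chr9:91230060-91289302 was not (0.0941). The rise at chr16:10618627-10670668 was called without any 1 library.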

How the data were processed

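Per the labels, reads were processed with Trim Galore 0.6.6, Bowtie2 2.4.4, SAMtools 1.13, bedtools 2.30 and SEACR 1.3, with peaks called in each library. The lists the authors deposited give each peak's total and maximum signal (fragment coverage, not normalized between libraries). Coordinates are of GRCm39 per the labels, while the study's methods name mm10. The annotation at hand was GRCm38, so the planned promoter counts, gene lists and marker checks were not run. For H3K27me3 at 4 dpi the labels' replicate numbers were followed, which the names of the lists reverse.

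Peaks on 21 chromosomes were used, with no blacklist filter. Overlaps were computed in Python 3.11.15 (numpy 2.4.6, pandas 2.3.3, scipy 1.17.1) and tested on simulated data. Libraries were compared with exact permutation tests (2-sided, Benjamini-Hochberg over 5 contrasts), and time points with limma 3.58.1 (R 4.3.3, trend, robust). Regions named in the text were the first 5 by fixed orders: strongest and weakest with both marks, widest, most H3K4me3 regions met, farthest, and smallest adjusted p by state. Regions on chromosome 18 were counted, not named. Members and lists were chosen with earlier results of these data known. Alternatives were stronger peaks, equal list length, 500 bp overlap, other strength measures, partner peaks of both libraries, no X and Y, no places high or called in all lists (the last chosen after seeing the data), each library left out, and replicate blocks.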

Additional observations from a re-analysis of the deposited data

Results flagged for a closer look

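The difference in strength between peaks that meet the other mark and peaks that do not ran in opposite directions for the 2 marks, and the test of that difference gave -44.0 percentile points (H3K4me3 minus H3K27me3, adjusted p = 0.0357, exact permutation test, n = 4 each). The log2 width ratio likewise differed by -0.70 (adjusted p = 0.0357, exact permutation test, n = 4 each). Both differences class the peaks of the 2 marks by the same overlaps, so the values are not fully independent. The width ratio is also partly built in, since a wider peak meets the other mark more easily. No library stood far from the other 3 of its mark in any of 22 sets of 4 values tested, where chance gives about 1 in 20. The sets did not hold every measure reported, and H3K27me3 of 2 dpi replicate 2 stood apart in measures left out. Of its enclosing peaks 70.2% had their maximum within H3K4me3, against 82.8% or more in the other H3K27me3 libraries. Of its class 10 by maximum signal 43.9% met H3K4me3, against 56.3% or more in the others.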

How the results depend on the processing

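With the stronger 50% of each list by maximum signal, the difference in covered length was -23.0 Mb (adjusted p = 0.0357, exact permutation test) and the log2 width ratio -0.0063 (adjusted p = 0.914). For H3K4me3, 7.37% of peaks and 5.82% of bases met H3K27me3, 48.7% of meeting peaks lay inside, and the median distance of peaks that did not meet was 100.7 kb. For H3K27me3 the values were 9.96%, 3.47%, 14.4% and 68.4 kb, and the Jaccard index was 0.0179. With lists of equal length (12060 peaks), peak number differed by 0 by construction. Median width differed by -1344 bp (adjusted p = 0.0714) and covered length by -31.7 Mb (adjusted p = 0.0476, exact permutation test for both). Of H3K4me3, 11.2% of peaks and 9.41% of bases met H3K27me3, with 56.4% inside. Of H3K27me3, 11.7% of peaks and 5.59% of bases met H3K4me3, and peaks that did not meet lay at a median of 48.6 kb. The Jaccard index was 0.0303. With partner peaks of both libraries, 11.6% of H3K4me3 peaks and 9.50% of bases met (50.1% inside, 83.2 kb) and 13.3% of H3K27me3 peaks and 4.85% of bases (5.62% inside, 40.6 kb).

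The replicate block, with libraries of the same number and time as pairs, left the differences of 3630 peaks, -1344 bp, -44.0 points and -0.70 with p = 0.125, the smallest the exact sign-flip test allows. In limma the block gave 187 risen and 21 fallen H3K27me3 regions, 24 and 12 of them with H3K4me3. Within a mark, same-numbered libraries of the 2 time points did not deviate together (correlations of -0.00265 for H3K4me3 and -0.0520 for H3K27me3). Whether same-numbered libraries of the 2 marks belong together was not tested.

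By maximum signal limma called 198 risen and 165 fallen H3K4me3 regions (11 and 22 with H3K27me3), and 4 and 0 H3K27me3 regions (1 and 0 with H3K4me3), and the shift of 1 named region turned to 0.29. On log2 of median-scaled signal 1882 H3K4me3 regions fell and 6 H3K27me3 regions with H3K4me3 rose. Without trend and robustness 0 were called for either mark.

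Leaving out each library gave differences of 3158 to 4083 peaks, -1518 to -1230 bp, -32.3 to -22.7 Mb, -44.8 to -43.1 points and -0.72 to -0.66 in log2 width ratio. Of H3K4me3 peaks 12.8 to 14.3% met (10.6 to 11.8% of bases, 57.6 to 64.4% inside, 63.7 to 69.8 kb) and of H3K27me3 peaks 15.5 to 18.1% (6.47 to 8.52% of bases, 7.12 to 9.23% inside, 33.7 to 36.9 kb). For H3K4me3, 239 to 1476 regions rose and 474 to 1280 fell (15 to 135 and 68 to 199 with H3K27me3). For H3K27me3, 8 to 315 rose and 0 to 28 fell (1 to 25 and 0 to 18 with H3K4me3). The cause of these changes was not tested. Calls of single regions and time differences rest on 2 libraries per time point.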
